A study of Mus musculus with 8 samples.

Results

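The Hox genes measured in embryonic mouse dorsal skin were 32 of the 18193 genes tested. They were all genes whose probe annotation gave a single symbol made of Hox, a cluster letter from a to d and a number, with Hoxc13 left out. There were 9 genes of the A cluster (chromosome 6), 9 of the B cluster (chromosome 11), 6 of the C cluster (chromosome 15) and 8 of the D cluster (chromosome 2). Gene expression had been profiled in wild-type skin on Affymetrix 3' expression arrays that cover the mouse genome. The groups were embryonic day 14.5 (E14.5, 2 samples), E16.5 (3 samples) and E18.5 (3 samples). No treatment or other genotype is named for any sample. The sources used here do not give strain, sex or the number of embryos behind each sample. Replicates are numbered in the order in which they were listed. The sample titles carry codes, some with a leading number in common (both E14.5 samples and an E18.5 sample, for example), and whether that marks a litter is not stated. Nothing states that they came from separate embryos, so the p-values measure only the spread between these samples.

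Hox genes encode homeodomain transcription factors that give cells their position along the head-to-tail axis of the body. They lie in 4 clusters, and their paralogue number follows their place in the cluster: low numbers are expressed up to the hindbrain and neck, middle numbers in the trunk, and high numbers in the lower back, tail and the distal parts of limbs. Fibroblasts of skin are known to keep a Hox pattern that matches the site they came from. Several HoxC genes have also been studied in hair follicle development, among them Hoxc13, which drives hair keratins.

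The measured value is a deposited signal intensity per probeset on a linear scale. Skin markers were well represented: 8 of 8 epidermal and 9 of 9 dermal fibroblast markers lay above background on all arrays of each stage. For kidney and gut, 0 of 4 markers did so at any stage, although their sum was 622 on E14.5 replicate 1 and 42.6 on replicate 2. For cartilage and bone, 2 of 6 did so at each stage. For the central nervous system it was 1 of 7 at E14.5 and E16.5 and 0 at E18.5. Skeletal muscle genes were also present, with a signal that summed to 6641 to 12285 in the E14.5 samples, 54018 to 60379 in the E16.5 samples and 67402 to 104984 in the E18.5 samples. The E14.5 arrays stood apart as arrays. Their median signal was 60.8 to 63.4 against 120.1 to 152.6 on the other 6, and the ratio of 3' to 5' actin probes was 6.49 to 6.91 against 1.11 to 1.37. What made these arrays differ was not tested. For every difference from E14.5, stage and array preparation therefore cannot be told apart. In whole skin, moreover, fewer cells of a type and less RNA per cell cannot be told apart.

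Most Hox genes of paralogue groups 1 to 10 gave signal at all stages, while the members of groups 11 to 13 lay mostly at background. A gene was taken as above background where its signal exceeded the 95th percentile of 43 olfactory receptor probesets on the same array. These receptors belong to the nose and served as a stand-in for unexpressed genes. That level was 32.5 to 37.3 in the first stage, 32.2 to 51.1 in the second and 61.3 to 90.5 in the last. On all 8 arrays, 19 of the 32 Hox genes lay above it, beside 59.8% of all genes tested. On all arrays of a stage the count was 24 (E14.5), 23 (E16.5) and 20 (E18.5), beside 66.3%, 70.1% and 66.1% of all genes. The share over all Hox genes was thus near that of genes in general, and the contrast lay between the paralogue groups.

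Among paralogue groups 1 to 10, 19 of 26 genes were above background on all 8 arrays. Among groups 11 to 13, 0 of 6 were above it on all arrays of any stage. Hoxc13, which is of group 13 but was left out of the set, was above it on all 8 arrays. Hoxb13, Hoxd11, Hoxd12 and Hoxd13, which act in the tail bud, limb tips and genital region, were at or below background on all 8 arrays. Signals of Hoxd13 were 2.82 and 19.6 on the E14.5 arrays, 26.7, 14.6 and 16.8 on those of E16.5 and 8.04, 7.26 and 30.7 on those of E18.5. Hoxa11, known from limb and uterus, exceeded background on 3 arrays and Hoxa13 on 1. Hoxa11 gave 23.6 and 18.7 on the E14.5 arrays, 65.9, 36.7 and 54.7 on those of E16.5 and 109.5, 43.0 and 67.7 on those of E18.5, so the array with the highest signal was at E18.5 and both E14.5 arrays were low.

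Within groups 1 to 10, 7 genes missed at least 1 array. The most anterior genes were irregular: Hoxb1, a gene of the hindbrain, was above background on 3 arrays and Hoxd1 on 4. Other anterior genes were not: Hoxa2, Hoxa3, Hoxb2, Hoxb3, Hoxb4, Hoxc4 and Hoxd3 were above background on all 8. Hoxb7 was above it on 1 array only by its own probeset, although a probeset annotated to both Hoxb7 and a neighbour was above it on all 8. By contrast, Hoxa4, Hoxa10, Hoxb9 and Hoxc10 were above it on 7. By cluster, 5 of 9 A genes, 5 of 9 B genes, 5 of 6 C genes and 4 of 8 D genes were above background on all 8 arrays. Hoxc10 was the member of its cluster that missed 1 array, E14.5 replicate 1, on which its signal was 3.23. A probeset at background shows no level and does not show that the gene is silent.

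**Figure D1:**
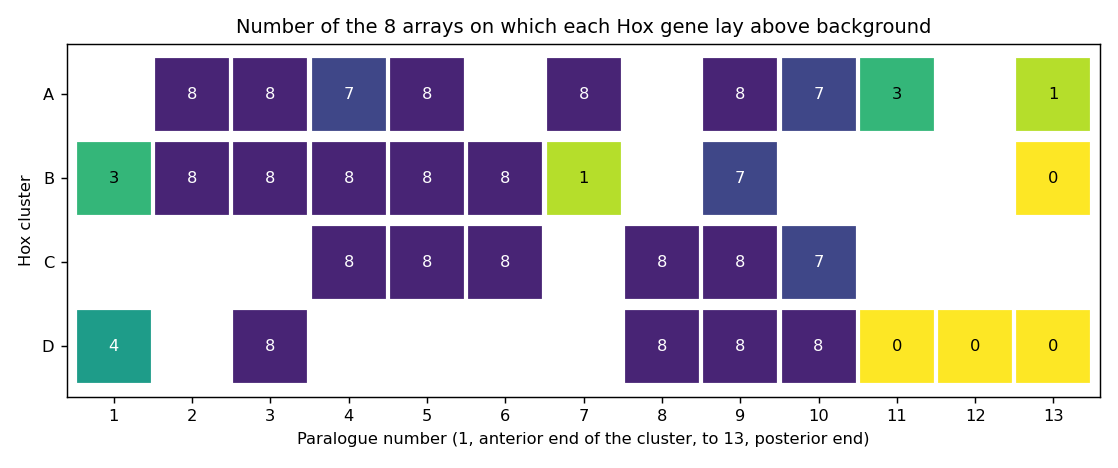
Number of the 8 arrays (marked in each cell) on which each Hox gene lay above the olfactory receptor background, with clusters A to D in rows and paralogue number in columns. Genes of groups 11 to 13 exceeded background on 0 to 3 arrays, while 19 of the 26 genes of groups 1 to 10 did so on all 8. Hoxc13, of group 13, was left out of the set and is not shown. It exceeded background on all 8.

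Between E16.5 and E18.5, the stages whose arrays were most alike in these controls, Hoxc8 was the only call among the 32 Hox genes. Hoxc8, a gene of the thoracic region, had signals of 3154 and 3925 on the E14.5 arrays, 1388, 1436 and 1362 on those of E16.5 and 636, 449 and 971 on those of E18.5. Each stage lay wholly below the one before it. From E16.5 to E18.5 it fell by 1.08 on the log2(signal + 16) scale (SE 0.23, limma adjusted p = 0.0153), or 2.14-fold as a ratio of geometric mean signals. Leaving out any 1 of the 3 E16.5 arrays gave differences of -1.06 to -1.09, with limma adjusted p from 0.0555 to 0.0602. Subtracting each array's median olfactory signal gave an adjusted p of 0.0505.

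Of the 32 Hox genes, 1 (3.12%) passed an adjusted p of 0.05, against 12.9% of all genes tested (7.28% rose and 5.58% fell). By limma, 0 Hox genes rose, and at an unadjusted p under 0.05 the Hox genes counted 4 above and 2 below. The median difference was 0.23, beside a median of 0.12 over all genes. The arrays of the 2 stages did not overlap for 9 of the 32 genes, beside 38.6% of all genes. Without E18.5 replicate 3 the count of calls was 5 of 32, a share near the 14% of all genes called in that fit. Without E18.5 replicate 2 it was 2 (Hoxb7 and Hoxc8, beside 10.5%), and without any 1 E16.5 array it was 0, beside 4.17% to 5.52%.

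The 6 HoxC genes lay on one side. On the probesets used, all 6 had a difference below 0, from -0.36 to -1.08 with a median of -0.42. Of the 26 genes of the other clusters 4 did, and 39.7% of all genes. The probesets not used gave -0.41 and 0.16 for Hoxc5 and -0.24 and 0.78 for Hoxc6. Those above 0 did not exceed background on all arrays of either late stage. Hoxc13, the gene of this cluster left out of the set, went the other way and rose by 1.87 on the log2 scale (SE 0.32, limma adjusted p = 0.00573). This pattern was singled out after its values were seen, and with the exception of Hoxc8 its members did not pass the test. The count below 0 was 6 in 19 of the 21 alternatives and 5 with probesets averaged per gene and without E18.5 replicate 2. In some of the 19 the signs could not change. These left out an E14.5 array, dropped the variance trend, left out dim genes or fitted only the stages compared.

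Hoxc4, the most anterior HoxC gene, gave 4060 and 3443 on the E14.5 arrays, 973, 1055 and 1147 on those of E16.5 and 397, 457 and 1045 on those of E18.5. Its E18.5 replicate 3 lay among the E16.5 values, and its difference was -0.86 (SE 0.29, limma adjusted p = 0.0839). Hoxc5 gave 350, 328 and 396 at E16.5 and 225, 199 and 379 at E18.5, again with replicate 3 inside the earlier range. Hoxc6, active in the upper trunk, gave 708, 834 and 852 at E16.5 and 494, 566 and 774 at E18.5, where the stages overlapped through that same array. Hoxc9, of the lower thoracic trunk, gave 197, 193 and 177 at E16.5 and 138.5, 116 and 167 at E18.5, without overlap but with an adjusted p of 0.307 by limma. Hoxc10, a lumbar gene, gave 357, 317 and 226 at E16.5 and 383, 113 and 258 at E18.5, with overlapping stages.

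E18.5 replicate 3 had the highest signal of its stage for 5 of the 6 HoxC genes. Without it, limma put Hoxc4 at -1.28 (adjusted p = 0.00127), Hoxc5 at -0.71 (adjusted p = 0.0448) and Hoxc8 at -1.36 (adjusted p = 0.00197). Hoxa2 and Hoxa13 were then called as rises. The same array had the highest summed signal of its stage for dermal fibroblast markers (144517 to 182957 over the stage) and for skeletal muscle (67402 to 104984). It had the lowest for hair follicle (9574 to 27316), melanocyte (6978 to 11484), adipocyte (18349 to 26582) and epidermal markers (147595 to 153959). From E16.5 to E18.5, 5 of 6 hair follicle, 3 of 3 adipocyte and 3 of 4 melanocyte markers were called as rises. So were 3 of 8 epidermal and 3 of 9 dermal fibroblast markers, while of 10 skeletal muscle markers 1 rose and 2 fell. Over all genes tested, 7.28% rose and 5.58% fell. E18.5 replicate 2 had the lowest signal of its stage for 22 of the 32 Hox genes, and for 7006 of all 18193 genes. The part of tissue makeup in these differences was not tested.

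**Figure D2:**
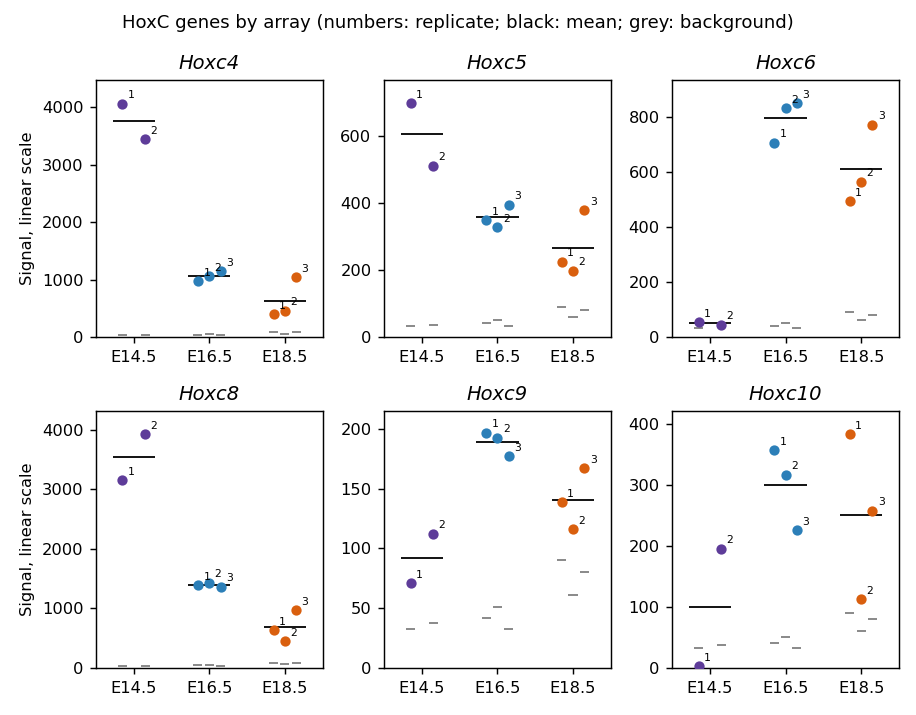
Deposited signal (linear axis from 0) of the 6 HoxC genes on each of the 8 arrays by stage, with points for arrays, the number beside a point for its replicate and a bar for the stage mean. E18.5 replicate 3 lies above the other E18.5 arrays for all but Hoxc10, and the stages do not overlap for Hoxc8.

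The member genes of the other clusters gave no call in this interval by limma. Outside the members, a probeset annotated to Hoxb7 and a neighbour was called as a fall (-1.49, limma adjusted p = 0.0125). A probeset annotated to a neighbouring pair of the D cluster was also called as a fall (limma adjusted p = 0.00137), and the other probeset of that pair was not called. At an unadjusted p under 0.05, 4 of the 26 genes were above 0 and 0 below. Hoxa2, which patterns the hindbrain and second pharyngeal arch, gave 146 and 153 on the E14.5 arrays, 88.3, 140.0 and 102 on those of E16.5 and 289, 197 and 167 on those of E18.5. The late stages did not overlap, and the difference was 0.88 (SE 0.26, limma adjusted p = 0.0556). Hoxb3 gave 435, 554 and 456 at E16.5 and 717, 636 and 670 at E18.5, also apart, with a difference of 0.48 (SE 0.18, limma adjusted p = 0.111). Its other probeset gave a difference of 0.08 with overlapping stages. Hoxa13 and Hoxb7, also among the 4 genes counted above 0, were mostly at background. Hoxb7 gave 21.7, 12.9 and 14.3 in the E16.5 samples and 94.6, 27.6 and 51.7 in the E18.5 samples.

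Of the 20 genes above background on all arrays of both late stages, 14 belonged to the A, B and D clusters. Of those 14, 12 had a difference above 0 and 2 below, with a range of -0.31 to 0.88 and a median of 0.23. Hoxb2 (-0.21) and Hoxd8 (-0.31) were the 2 below. The scale matters for these signs: over all 32 genes, 22 were above 0 as deposited, 19 after quantile normalization and 18 after centring each array on its median. Hoxd9 and Hoxd10, posterior trunk genes, had differences of 0.03 (SE 0.14) and 0.10 (SE 0.22), within the spread of their arrays.

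**Figure D3:**
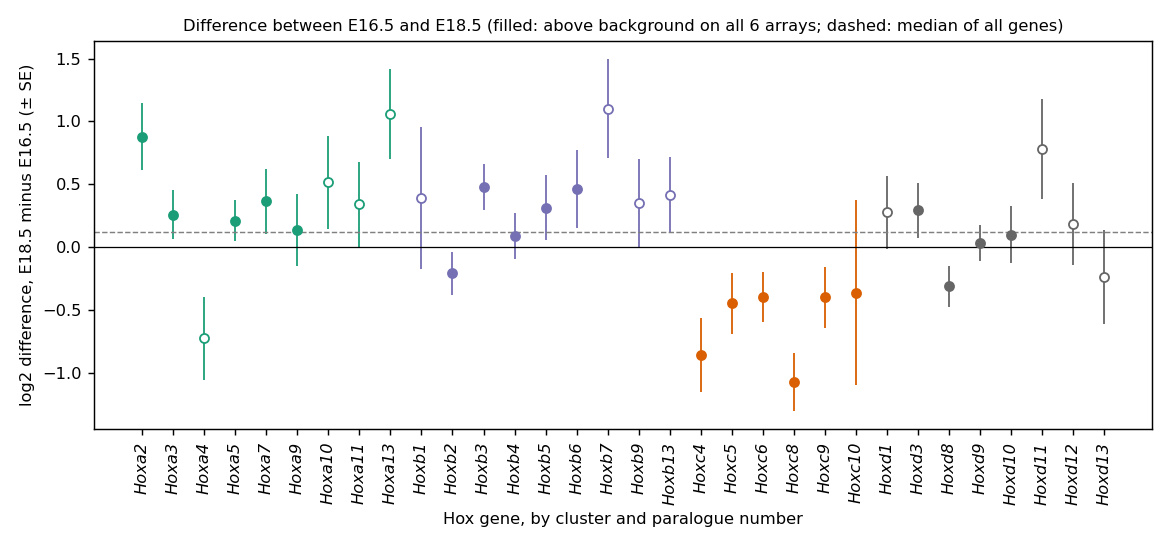
Log2 difference of E18.5 against E16.5 with its standard error for each of the 32 Hox genes, in order of cluster and paralogue number. Filled points were above background on all 6 arrays, the dashed line is the median of all genes (0.12), and all 6 HoxC points lie below 0.

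Against E14.5 the Hox genes differed widely and in both directions, at about the rate of genes in general. From E14.5 to E16.5, 19 of the 32 were called (59.4%), beside 57.9% of all genes tested. By direction 8 rose, beside 37.1% of all genes, and 11 fell, beside 20.8%. After quantile normalization 5 rose and 14 fell (54.0% of all genes called), and after centring each array on its median 5 rose and 18 fell (60.9%). With the mean of a gene's probesets, or their median, the balance was the other way, with 10 rising and 8 falling (52.8% and 53.5%). Some neighbours in a cluster went opposite ways, and others, such as Hoxd9 and Hoxd10, went the same way. Array preparation cannot be told apart from stage in all of these values.

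Promoter sequences are shown for 3 of the genes with the largest changes. They are Hoxd9 and Hoxd10, neighbours in the D cluster that both fell, and Hoxa5, which rose on the probeset used. Each is the 250 bases before the annotated start, 5′ to 3′ on the gene's strand, from RefSeq on GRCm38.p6, in lower case with CG pairs in capitals. Hoxd9 is chr2:74697513-74697762 (+ strand, 13 CG pairs), Hoxd10 is chr2:74691641-74691890 (+ strand, 20 CG pairs) and Hoxa5 is chr6:52204588-52204837 (- strand, 28 CG pairs).
Hoxd9: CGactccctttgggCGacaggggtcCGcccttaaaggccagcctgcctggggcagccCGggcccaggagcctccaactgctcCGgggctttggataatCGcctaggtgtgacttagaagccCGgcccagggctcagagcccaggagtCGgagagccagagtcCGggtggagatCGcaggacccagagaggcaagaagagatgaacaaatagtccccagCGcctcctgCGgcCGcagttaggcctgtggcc
Hoxd10: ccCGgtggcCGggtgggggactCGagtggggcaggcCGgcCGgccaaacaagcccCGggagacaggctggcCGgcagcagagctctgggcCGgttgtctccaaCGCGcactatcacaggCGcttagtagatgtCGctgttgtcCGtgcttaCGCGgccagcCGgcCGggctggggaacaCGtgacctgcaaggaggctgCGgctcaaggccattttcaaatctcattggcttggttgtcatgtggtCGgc
Hoxa5: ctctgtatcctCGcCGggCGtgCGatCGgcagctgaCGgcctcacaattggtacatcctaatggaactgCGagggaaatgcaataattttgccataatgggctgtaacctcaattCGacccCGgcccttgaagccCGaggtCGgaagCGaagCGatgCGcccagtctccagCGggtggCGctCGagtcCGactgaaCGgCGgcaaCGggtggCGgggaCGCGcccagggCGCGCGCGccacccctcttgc
All 3 windows are dense in CG pairs, as promoters of developmental regulators usually are. The median was 13 CG pairs over the 21 promoters that the table held for 19 of the Hox genes, and 6 over all 32851 promoters of the table, taken at the same length.

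Hoxd9 fell most. Its signals were 6293 and 7026 on the E14.5 arrays, 609.6, 544 and 561 on those of E16.5 and 609.2, 486 and 673 on those of E18.5. Both E14.5 arrays were far above the other 6, which overlapped one another. From E14.5 to E16.5 it fell by 3.51 on the log2 scale (SE 0.16, limma adjusted p = 8.132e-08), 11.6-fold lower. Hoxd10 gave 497 and 534 on the E14.5 arrays, 130.6, 104 and 97.6 on those of E16.5 and 98.9, 115 and 147 on those of E18.5, a fall of 4.68-fold without overlap.

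Hoxa3, which acts in the neck and pharyngeal organs, gave 653 and 601 on the E14.5 arrays, 130.4, 138 and 113 on those of E16.5 and 166, 134 and 166 on those of E18.5. The fall was 4.94-fold on this probeset, but it turned on the choice of probeset, since the median of all 4 Hoxa3 probesets gave a difference of 0.19. Hoxa10, a gene of the lower trunk and uterus, gave 239.9 and 490.2 on the E14.5 arrays, 59.7, 78.4 and 59.2 on those of E16.5 and 160.0, 57.5 and 105 on those of E18.5. It fell by 2.15 on the log2 scale (SE 0.41, limma adjusted p = 0.00107), and its E14.5 arrays differed from each other more than those of Hoxd9 or Hoxa3. Its other probeset gave -0.83 and was not called.

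Hoxc6 gave 53.9 and 45.2 on the E14.5 arrays, 708, 834 and 852 on those of E16.5 and 494, 566 and 774 on those of E18.5. Both E14.5 arrays lay just above background, and the rise was 16.1-fold (log2 difference 3.63, SE 0.22, limma adjusted p = 3.723e-07). Hoxb2, a hindbrain and neck gene, gave 60.8 and 49.1 on the E14.5 arrays, 729.6, 736 and 720.4 on those of E16.5 and 752, 566 and 584 on those of E18.5. It rose 13.3-fold to E16.5, where its 3 arrays were nearly equal.

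Hoxa5, which acts in the neck and upper chest, gave 156 and 117 on the E14.5 arrays, 641, 639 and 593 on those of E16.5 and 714, 647.5 and 823 on those of E18.5. It rose 4.63-fold on this probeset (log2 difference 2.08, SE 0.18). Its other probeset gave 139 and 183 at E14.5 and 167, 179 and 168 at E16.5, a difference of 0.09 that was not called. Hoxa5 ranks among the 4 largest rises on the log2(signal + 16) scale only, since by fold of the signal Hoxa7 (5.49) and Hoxb6 (4.96) exceeded it. Hoxc10 gave 3.23 and 195 at E14.5 and 357, 317 and 226 at E16.5. Its log2 difference of 2.29 (SE 0.82, limma adjusted p = 0.0352) was 0.56 without E14.5 replicate 1 (adjusted p = 0.43). That array also gave 369 for Cdx2 and 590 for Vil1, genes of the gut lining, against at most 45.2 and 21.1 on the other 7. Their part in the Hoxc10 value was not tested.

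**Figure D4:**
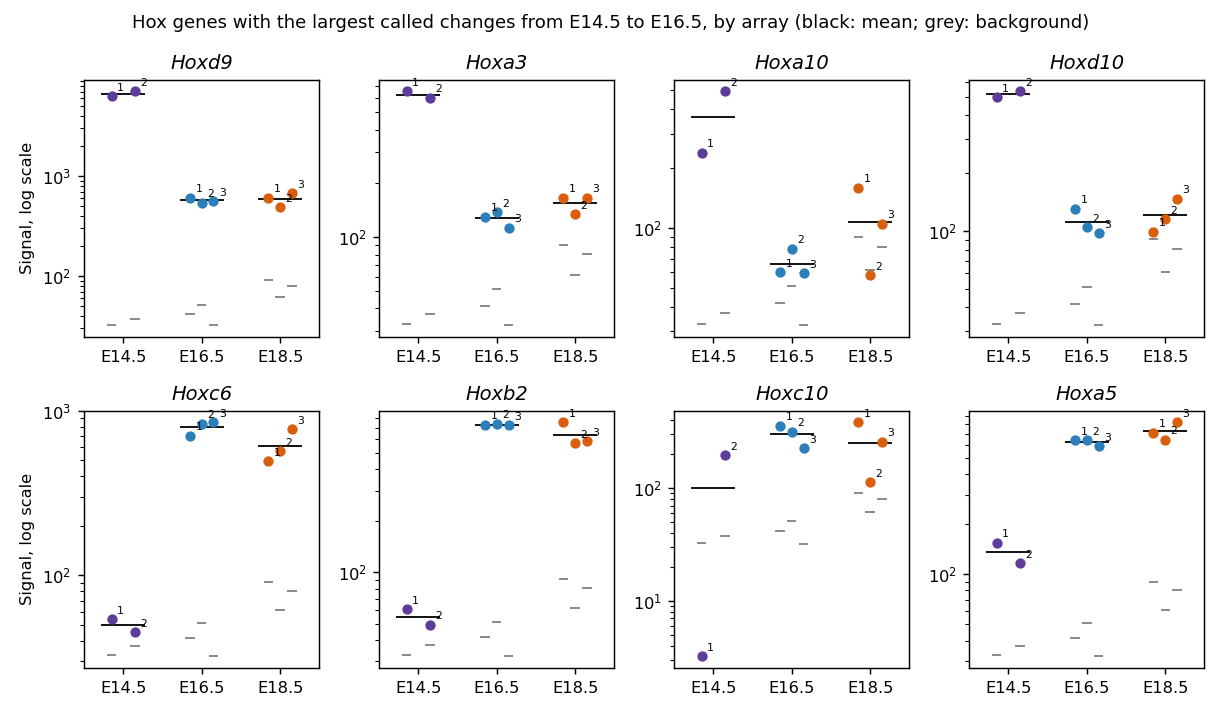
Deposited signal (log axis) of the 8 Hox genes with the largest called falls (Hoxd9, Hoxa3, Hoxa10, Hoxd10) and rises (Hoxc6, Hoxb2, Hoxc10, Hoxa5) from E14.5 to E16.5 on log2(signal + 16), one point per array and a bar for the stage mean. The E14.5 arrays lie apart from the E16.5 arrays in every panel, and Hoxc10 has 1 E14.5 array at 3.23.

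With the remaining calls included, the A, B and C clusters went both ways, while the calls in the D cluster were all falls. In the A cluster Hoxa7 rose from 41.9 ± 12.3 (SD, n = 2) to 231 ± 62.9 (SD, n = 3). In the B cluster Hoxb6 rose from 57.3 ± 26.1 to 274 ± 59.0, while Hoxb3, Hoxb4 and Hoxb5 fell by 1.43, 0.67 and 1.54 on the log2 scale. In the C cluster all 6 genes were called: Hoxc6, Hoxc9 and Hoxc10 rose, and Hoxc4, Hoxc5 and Hoxc8 fell. In the D cluster Hoxd3, Hoxd9 and Hoxd10 fell and 0 rose by limma. Hoxa13 was called too, with all its E14.5 and E16.5 arrays at or below background. Hoxa9, a thoracic to lumbar gene, had stage means of 527 ± 11.1 (SD, n = 2), 550 ± 84.8 (SD, n = 3) and 643 ± 268 (SD, n = 3), and was not called.

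Different probesets of one Hox gene often gave different answers from E14.5 to E16.5. The 32 genes had 47 probesets. More than 1 was present for 11 genes, and in 6 of these 11 the differences had both signs. For Hoxb3, Hoxb4 and Hoxc5, 1 probeset was called as a rise and another as a fall, in a fit that took every probeset as a feature. One Hoxb4 probeset gave 416 and 336 at E14.5 and 227, 238 and 222 at E16.5, a difference of -0.67. The other gave 24.0 and 7.23 and then 129, 138 and 140.2. Its E14.5 signals were at or below background, so the size of its rise has only a bound. Both were called in that fit, where 53.2% of all probesets were.

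Hoxd8 had 1 probeset with -0.21 and another with -3.07. Hoxa9 had 1 with 0.05 and another that was called as a rise from 5.83 and 30.0, both at or below background, to 188, 223 and 189. For Hoxc6, 2 probesets were called as rises, the second of them from E14.5 signals at or below background, and the remaining one was not called (-0.76). From E16.5 to E18.5 the signs differed in 7 of the 11 genes, but 1 of the 47 probesets, that of Hoxc8, was called (beside 9.44% of all probesets). Opposite calls numbered 0 there by limma. The cause of these disagreements was not tested.

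**Figure D5:**
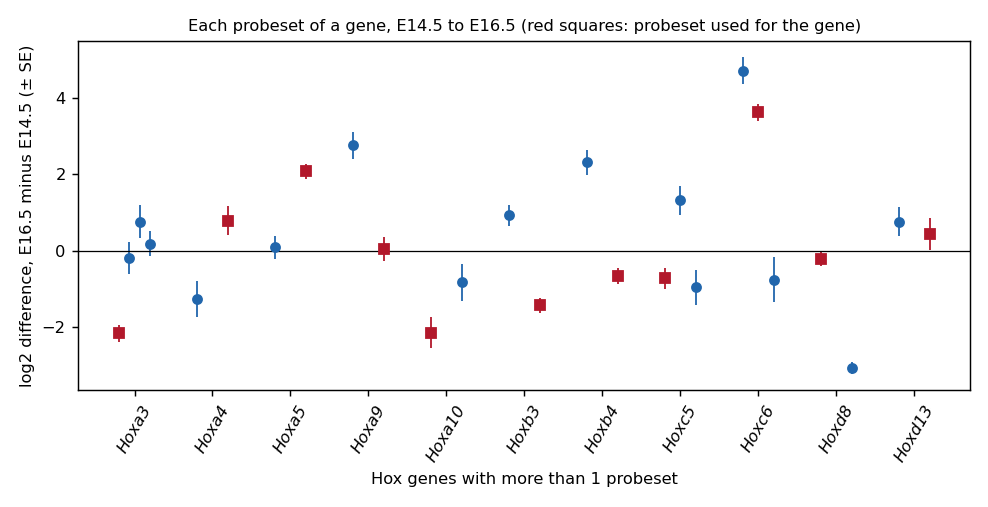
Log2 difference from E14.5 to E16.5 of every probeset of the 11 Hox genes with more than 1, with red squares for the probeset used for the gene. Points of one gene lie on both sides of 0 for 6 genes, and the Hoxd8 probesets lie at -0.21 and -3.07. For Hoxa9, Hoxb4 and Hoxc6 the uppermost point rests on E14.5 signals at or below background.

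From E14.5 to E18.5, a comparison that shares its arrays with both others, 20 Hox genes were called, beside 61.2% of all genes. Of these 8 rose, beside 41.7% of all genes, and 12 fell, beside 19.5%. Among the differences, Hoxc6 stood at 3.24 (12.2-fold), Hoxb2 at 3.19 (11.5-fold), Hoxd9 at -3.47 (11.4-fold) and Hoxc4 at -2.67 (6.51-fold). The split was 6 and 13 after quantile normalization (53.9% of all genes called) and 6 and 18 after median centring (58.8%). It turned to 10 and 7 with the mean or the median of a gene's probesets (56.8% and 57.2%). Hoxc8 was called as a fall in both intervals, at -1.33 (SE 0.26) and then -1.08 (SE 0.23). The second change differed from the first in 14 of the 32 genes by limma, beside 45.2% of all genes. It was the higher in 8 and the lower in 6, against 9 and 3 after quantile normalization and 11 and 3 after median centring.

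Genes that work with or act on Hox genes were counted between E16.5 and E18.5 beside the 12.9% of all genes called there. Hox proteins bind DNA with Pbx and Meis cofactors, and 0 of 8 cofactor genes were called by limma, with 1 below 0 at an unadjusted p under 0.05 and a median of 0.02. From E14.5 to E16.5 all 8 were called, 5 as rises and 3 as falls, beside 37.1% and 20.8% of all genes. Pbx4, among the rises, had all its E14.5 and E16.5 arrays at or below background. Pbx3 gave 3943 and 4352 at E14.5 and 841, 708 and 662 at E16.5. Of the upstream genes, which are caudal factors, Gdf11 and the retinoic acid receptors and enzymes, 0 of 10 were called by limma in the late interval, with 1 above 0 at an unadjusted p under 0.05 and a median of 0.18. The retinoic acid degrading enzyme Cyp26b1 and the receptors Rara and Rarg were the 3 called from E14.5 to E16.5, all as rises. Cyp26b1 rose 10.97-fold and Rarg 5.12-fold, and Rara, with both E14.5 arrays at or below background, at least 9.53-fold.

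Polycomb proteins keep Hox genes silent where they do not belong, and trithorax proteins keep them active. All 23 measured genes of the 24 in this list lay above background on all arrays. Between E16.5 and E18.5, 3 fell and 0 rose by limma, with 7 below and 0 above at an unadjusted p under 0.05 and a median of -0.10. That is near the share of all genes called in this interval (12.9%, of which 5.58% fell). Dot1l, the H3K79 methyltransferase, gave 1205, 1434 and 1292 at E16.5 and 767, 613 and 612 at E18.5, a 1.98-fold fall without overlap (limma adjusted p = 0.00241). Cbx2, a Polycomb subunit that reads H3K27 methylation, gave 1158, 1144 and 1298 and then 911, 715 and 658, a 1.59-fold fall (limma adjusted p = 0.0234). Phc1 fell by 0.49 on the log2 scale.

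Of 14 noncoding RNAs of the Hox clusters, 3 were measured. Hoxb5os, an opposite-strand transcript of the B cluster, gave 223, 286 and 228 at E16.5 and 609, 411 and 464 at E18.5. It rose 2.00-fold without overlap (limma adjusted p = 0.0131). Hoxb5 itself gave 117 ± 7.88 (SD, n = 3) and 152 ± 34.2 (SD, n = 3), a difference of 0.31 that was not called. Whether the labelling kept both strands apart was not tested.

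Other regulators of body position were measured for 19 of 23 genes, of which 1 rose and 1 fell between the late stages, with a median of 0.11. Msx2, active in hair matrix and limb, rose 4.10-fold, from 128 ± 28.8 to 562 ± 290.1 (SD, n = 3 each). Dlx5 gave 1075, 1005 and 949 at E16.5 and 299, 593 and 166 at E18.5, a 3.26-fold fall. Tbx15, a gene of dorsal dermis, lay above background on all 8 arrays, with 1009 to 1573 over the late stages and a difference of 0.37 that was not called. The forelimb and head genes Tbx5 and Otx2 gave at most 36.4 and 16.5 on any array. Pitx1, Alx4 and Lmx1b of the same list exceeded background on some arrays, with Pitx1 at 104, 57.4 and 135 at E18.5. Hoxc13, left out of the counts above, gave 97.2 ± 30.8 at E16.5 and 403 ± 156 at E18.5 (SD, n = 3 each). It rose 4.12-fold, while the 6 HoxC genes above had differences below 0.

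Motifs were counted in the Hox promoters on both strands, over the 250 bases before each start. AGGTCA, the core sequence bound by retinoic acid receptors, was in 5 of the 21 promoters (23.8%), beside 14.02% of all promoters. TGATTNAT, bound by Hox proteins with Pbx, was in 2 (9.52%), beside 2.83%. TTTATG, bound by caudal factors, was in 3 (14.3%), beside 10.8%. The Hoxd10 window printed above holds an AGGTCA match on one strand. GC content ranged from 44.4% to 80.0% over the Hox promoters, with a median of 59.2% beside 52.4% over all promoters. A match is a stretch of letters and no evidence of binding.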

How the data were processed

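The authors deposited one table of signal intensity values on a linear scale for 45101 probesets and 8 arrays. Per the submitters' processing notes, Affymetrix Expression Console 1.1 and PLIER 2.0 were used, and the sources used here name no background correction or normalization. RNA was extracted with Trizol and amplified with random hexamers, per the labels' protocols. That labelling was made for whole-transcript arrays, and these are 3' arrays.

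Of the probesets, 34958 carried 1 symbol, 932 several and 9211 none. After leaving out controls, 34945 were used, and gene IDs of 34741 matched the reference table (GRCm38.p6). Each gene was given its probeset with the highest mean log2 value. Values were log2(signal + 16), so differences of dim genes are understated. In limma 3.58.1 (R 4.3.3) each stage had its own mean and all 8 arrays shared one spread (lmFit, eBayes with trend), with Benjamini-Hochberg adjustment over 18193 genes, called under 0.05. The script was tested on simulated data. A fold is the ratio of geometric mean signals and is given where all arrays of both stages lay above background. The number of arrays limits the precision.

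Values on every array were given for members called between E16.5 and E18.5, then for the 4 largest rises and 4 largest falls from E14.5 to E16.5. Other genes with values on every array were chosen after their values were seen. From each related list, the 2 largest calls in each direction between the late stages were named. The members, lists and tests were chosen with earlier results of these data known. Alternatives covered the pseudocount, normalization, dim genes, variance, array weights, background, choice of probesets, arrays in the fit and leaving out each array. Subtracting the median olfactory signal, choosing the probeset on the linear scale and taking every probeset as a feature were added after the data were seen. Replicate numbers follow the order of listing, and 0 pairs of arrays were identical.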

Additional observations from a re-analysis of the deposited data

Results flagged for a closer look

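Second changes that differed from the first were tested directly in limma, as the difference between the change from E16.5 to E18.5 and that from E14.5 to E16.5. For 14 Hox genes the adjusted p was under 0.05. The second change was higher, on the log2 scale, by 1.29 for Hoxa2, 2.43 for Hoxa3, 2.66 for Hoxa10, 1.91 for Hoxb3, 1.86 for Hoxb5, 1.51 for Hoxd3, 3.54 for Hoxd9 and 2.17 for Hoxd10. It was lower for the other 6, with values of -1.87 for Hoxa5, -1.71 for Hoxa7, -3.60 for Hoxb2, -1.55 for Hoxb6, -4.03 for Hoxc6 and -1.35 for Hoxc9. Both intervals share the E16.5 arrays. The first also holds any difference in array preparation between E14.5 and the later stages, which cannot be told apart from stage.

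Outside the counts of Hox genes lay 3 probesets that carry the symbols of 2 neighbouring Hox genes each and therefore name neither. Their signals were above background at E16.5. The probeset annotated to Hoxb7 and a neighbour in the B cluster had a mean signal of 319.9 at E16.5 and fell by 1.49 on the log2 scale to E18.5 (SE 0.30, limma adjusted p = 0.0125). One probeset annotated to a neighbouring pair of the D cluster had 551, 592 and 542 at E16.5 (mean 562) and 9.81, 37.4 and 93.6 at E18.5. It was called as a fall (limma adjusted p = 0.00137) and its stages did not overlap, but 2 of the 3 E18.5 signals were at or below background, so the size has only a bound. The other probeset of the same D pair had a mean of 295 at E16.5 and a difference of -0.26 that was not called, so the probesets of that pair disagreed.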

How the results depend on the processing

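No paired analysis was possible because the labels give no replicate numbers, and the title codes, of which some share a leading number, have no stated meaning. The count of Hox genes called from E16.5 to E18.5 was 1. It was 2 with median centring, with genes above background on 2 or more arrays, with array weights and with the mean of all probesets, and 0 with the median olfactory signal subtracted. Leaving out 1 array gave counts of 0 to 5. Hoxc8 kept its direction in all 22 alternatives, but in several of them its difference of -1.08 could not change. Examples are leaving out an E14.5 array, dropping the variance trend and other rules for choosing probesets, since Hoxc8 has 1 probeset. It lost its call in 4, namely without any 1 of the 3 E16.5 arrays and with the olfactory signal subtracted (limma adjusted p from 0.00197 to 0.0602 over all). Total counts against E14.5 stayed within 1.5 times, but the split by direction did not (falls of 8 to 18 for E16.5 and 7 to 18 for E18.5). The totals were 15 to 23 for E16.5, 17 to 24 for E18.5 and 10 to 17 for the difference between changes. Counts above background were 21 to 24, 21 to 24 and 18 to 22 by stage. From E14.5 to E16.5 Hoxa3 was -2.17 and turned to 0.19 with the median of all probesets and with only probesets without an _s, _x or _a suffix. Hoxc10 lost its call in 9 of 21 alternatives. Over the 9 named genes, 173 of 190 values kept direction and call, 15 lost the call and 2 reversed. These values include alternatives in which the direction could not change, such as leaving out an array of a stage not compared. Median centring moved the median of all genes from 0.12 to -0.05 for E18.5 against E16.5 and from 0.29 to -0.55 for E16.5 against E14.5. The share of rises among called genes went from 56.6% to 27.5% and from 64.1% to 31.9%.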
